A study of Homo sapiens with 6 samples.

Results

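The 38 HOX genes described here are the genes of the HOXA, HOXB, HOXC and HOXD clusters whose symbol in the deposited expression table is one of a fixed list, read without their antisense RNAs. They take 39 of the 31628 rows of that table, since HOXC4 has 2 gene identifiers. The table holds poly(A)-selected RNA-seq of HCT116, a human colon cancer cell line, in which the histone acetyl-lysine reader ENL, the product of MLLT1, carries an auxin-inducible degron (ENL-AID). The washout group received the auxin IAA (500 um as the labels write it, for 3 h), was rinsed with PBS and grew for 48 h in normal medium. The IAA group was harvested after the same 3 h of IAA, and the control group was left without it. Each group has 2 libraries, and all 3 groups carry the degron on ENL and stably express AtAFB2, the plant F-box protein that hands auxin-bound degrons to a ubiquitin ligase. AID clones were selected with puromycin and blasticidin, and no group without degron or AtAFB2 is among the 6 libraries. The labels do not say what a replicate number stands for, so p-values measure only the spread between these libraries, which may be technical.

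HOX genes encode homeodomain transcription factors that tell cells where they lie along the body axis. Within a cluster they stand in the order in which they are used, from the anterior paralogs with low numbers to the posterior paralogs with high numbers, and adult epithelia, the colon among them, keep a part of this code. The methyltransferase KMT2A (MLL) maintains HOX expression and Polycomb complexes repress it, and ENL belongs to the elongation and DOT1L complexes that MLL fusion proteins recruit to HOXA genes in leukaemia. The comparison of IAA with control asks which HOX transcripts differ when the degron on ENL is triggered, and the comparisons with washout ask where they stand after the auxin is removed.

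Totals recovered from the steps of the FPKM values lay between 16442840 and 16770850 reads per library, and 18474 to 18853 genes were above 0. Of 8 markers of a colon epithelial line 7 had a mean of at least 1 FPKM, led by KRT18 and KRT19, whereas LGR5 was near 0. Their summed level was 324 to 340 FPKM after washout, 268 to 272 with IAA and 336 to 346 in control, so it was lower with IAA in both libraries. KRT18, KRT19 and KRT8 make up nearly all of this sum, and the marker CDX2 was higher in both IAA libraries than in both control libraries. The part of this shift in the HOX values was not tested. Of 6 fibroblast markers COL1A1 alone had a mean of at least 0.1 FPKM, and the 3 endothelial and 5 blood markers found were all below it. MLLT1 itself averaged 0.381 ± 0.0326 FPKM with IAA and 0.42 ± 0.0106 FPKM in control (SD, n = 2 each), a difference that was not called (limma adjusted p = 0.431). The degron acts on the protein, so the MLLT1 transcript does not check the treatment.

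HCT116 cells used the HOXA and HOXB clusters more than HOXC and HOXD. HOXA genes (chromosome 7) held 10716 of the 19617 HOX reads of all 6 libraries, HOXB genes (chromosome 17) 6706, HOXC genes (chromosome 12) 1482 and HOXD genes (chromosome 2) 713. HOXA9, HOXA10, HOXB7 and HOXB13 together held 54.9% of them. By position, the posterior genes of groups 9 to 13 held 12407 reads, the central genes of groups 4 to 8 held 6423 and the anterior genes of groups 1 to 3 held 787. The HOXA9 reads, 5000 in all, are even in every library. Their step implies a gene length of 16128 bp, against a GENCODE 29 span of 12746 bp. A larger step would also give whole reads, and fewer of them. HOXA9 counts, and the sums and shares that hold them, are therefore not settled. The steps of the deposited FPKM imply a length that for many HOX genes equals the whole span, introns included. If only exon reads were counted, this makes genes with long introns such as HOXB7 and HOXA9 look low. No source used here says whether intron reads were counted. If they were, exon RPKM overstates the same genes and their rank. Levels are compared between genes as exon RPKM, computed here from the recovered reads and the exon lengths of GENCODE 29. The gene models that were counted may differ from these. On this scale HOXA9 came out at 17.4 ± 0.951 in control cells, on its unsettled reads, so its rank is open. Of the others HOXB7 was highest at 10.5 ± 1.9, followed by HOXA10 at 7.93 ± 0.36 and HOXB6 at 4.9 ± 0.489. HOXA11 at 4.17 ± 0.266 and HOXA7 at 3.94 ± 0.149 came next (SD, n = 2 each). HOXB6 and HOXA11, and HOXA11 and HOXA7, differed by less than the sum of their SDs, and HOXB7 and HOXA10 each differed from the next by more. The map of levels shows 1 dense block in HOXA from group 5 to group 13 and another in HOXB from group 4 to group 9, with HOXB13 apart from it. HOXC also has a run, from HOXC6 to HOXC10, at 0.81 to 2.3. Its highest gene, HOXC9, stood above HOXA5 at 1.44 and HOXB8 at 1.3.

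**Figure D1:**
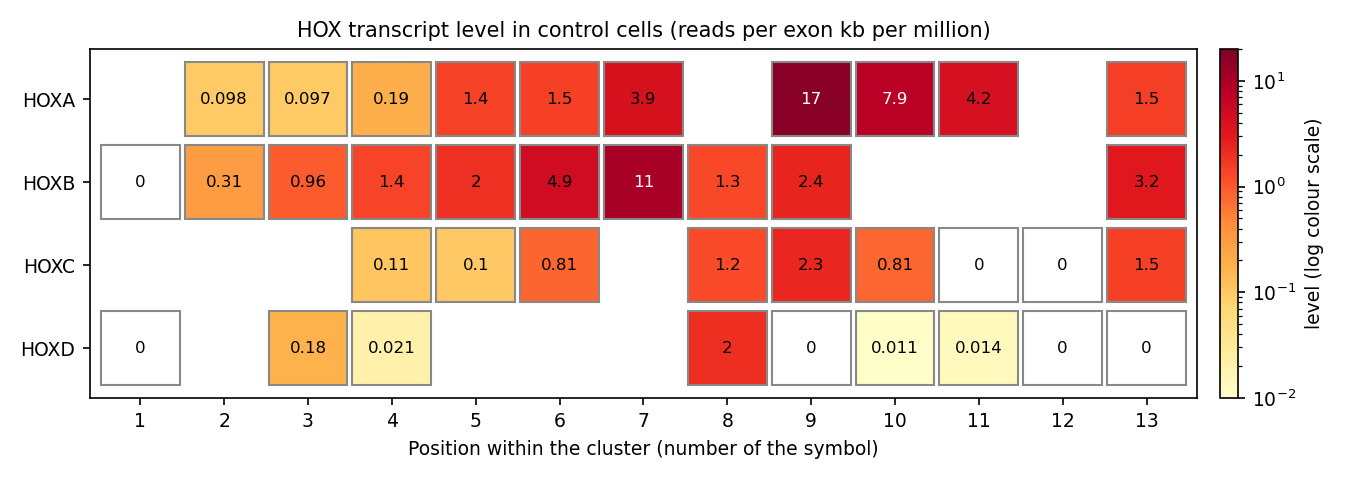
Level of every HOX gene in control cells, as the mean of 2 libraries in exon RPKM, by cluster (rows) and position number in the cluster (columns). Filled cells are darkest at HOXA9, HOXB7 and HOXA10, at 17.4, 10.5 and 7.93, and HOXD is empty or near 0 apart from HOXD8. The HOXA9 value rests on reads that are not settled.

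Of the 38 genes 6 had no read in any library, namely HOXB1, HOXC11, HOXC12, HOXD1, HOXD9 and HOXD13, which allows up to 3 reads in each library. HOXB1 works in the hindbrain and HOXD13 in digits and genitalia. A further 11 genes were detected but had a mean below 0.1 FPKM, with 1 to 326 reads each over the 6 libraries, and were not tested on the FPKM scale. They are HOXA2, HOXA3, HOXA4, HOXC4, HOXC5, HOXC6, HOXD3, HOXD4, HOXD10, HOXD11 and HOXD12. HOXC6, a thoracic patterning gene, had the most reads of these at 326, and its low FPKM goes with a span of 40200 bp. The second HOXC4 row was at 0 throughout. The remaining 21 genes were tested, with 12 to 833 mean reads per library: 7 of HOXA, 9 of HOXB, 4 of HOXC and HOXD8. Because few reads lie behind many of these genes, each was also tested on whole reads recovered from the FPKM steps, with limma's voom, which takes the precision of each read count into account and adds HOXC6 and HOXD3. The test on log2(FPKM + 0.1) is called the FPKM fit below and the test on recovered reads the read fit. In both, a call is a Benjamini-Hochberg adjusted p under 0.05 over all genes tested, two-sided.

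With IAA the HOX genes called lower in either fit on all 6 libraries belonged to HOXA. All 7 tested HOXA genes had log2 changes below 0 against control, with a median of -0.62, and both IAA libraries lay under both control libraries for each of the 7. HOXA11, which patterns the forearm and the uterus, showed the largest change that was called, at 0.47 times its control level, and HOXA9, HOXA10 and HOXA13 were called lower in the read fit. Over all 21 tested HOX genes 15 had a log2 change below 0, against 44.1% of all genes tested, and the median was -0.28 against 0.03 for all genes. The FPKM fit called 2 of 21 HOX genes lower, HOXA11 and HOXA5, where 3.77% of all genes were called lower. It called 0 of 21 higher, where 4.4% of all genes were, and 6 of 21 had an unadjusted p under 0.05, against 26.9% of all genes. The read fit called 4 of 23 lower, HOXA9, HOXA10, HOXA11 and HOXA13, and 1 higher, HOXB13, beside 10.2% and 13.9% of all genes. Without overlap between the libraries 11 of 21 HOX genes were lower with IAA and 3 were higher, beside 24.2% and 32.7% of all genes tested. In the plot of FPKM by library the IAA points of HOXA5, HOXA7, HOXA9, HOXA10, HOXA11 and HOXA13 stand below all 4 others. The same holds for HOXB3, HOXB4, HOXB8 and HOXC13, and the share of all genes was not counted for this rule.

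**Figure D2:**
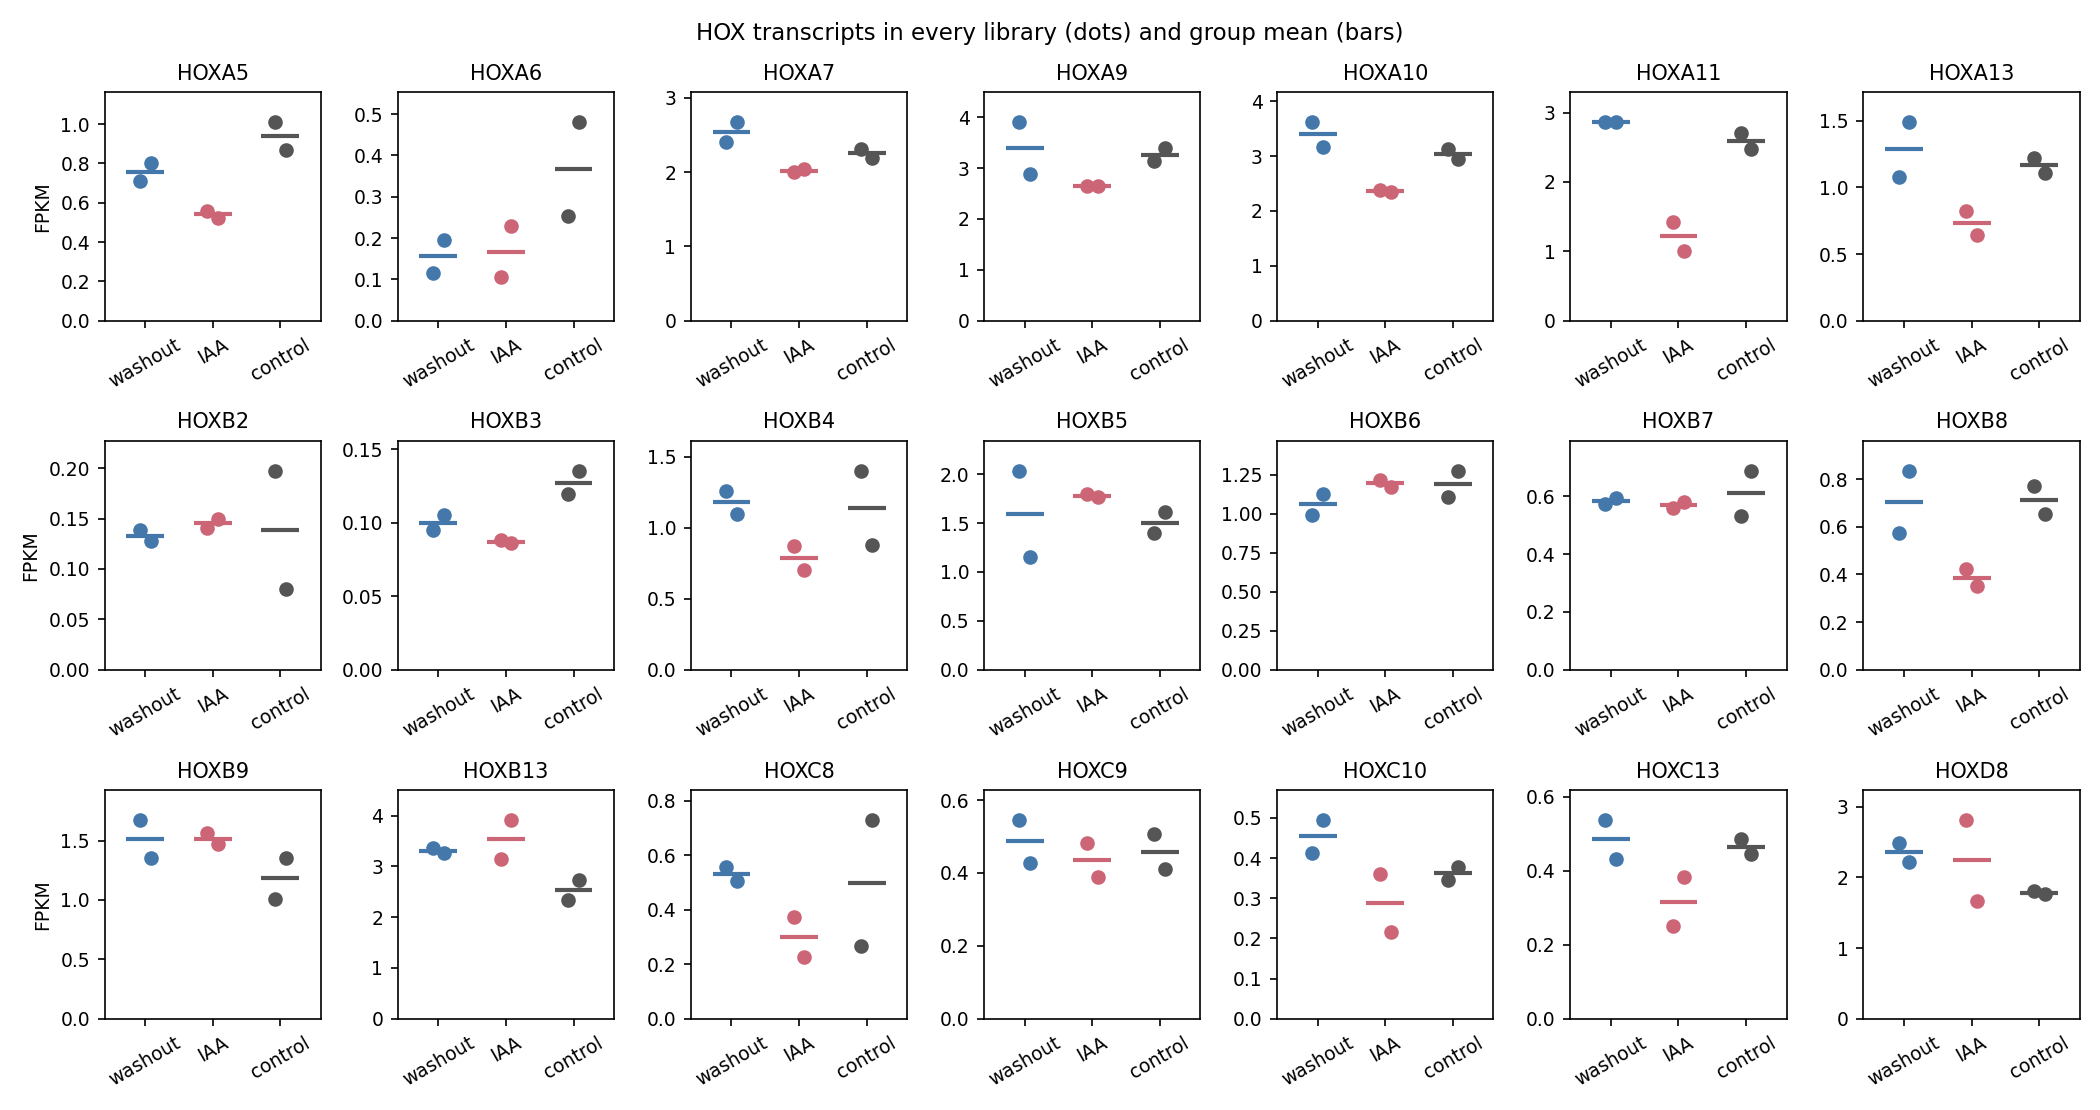
FPKM of the 21 tested HOX genes in each of the 6 libraries, with 1 panel per gene, dots for libraries and bars for group means, and each vertical axis starting at 0. The IAA dots of HOXA11 lie at 1.43 and 1.01, under the washout dots at 2.87 and 2.86 and the control dots at 2.71 and 2.47.

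HOXA11 had 1.43 and 1.01 FPKM with IAA, against 2.71 and 2.47 FPKM in control. These values rest on 87 and 63 reads with IAA and on 167 and 154 reads in control. Both IAA libraries were low, the second more than the first, and the groups did not overlap. The mean was 1.22 ± 0.292 FPKM with IAA and 2.59 ± 0.165 FPKM in control (SD, n = 2 each), a ratio of 0.47. The log2 change was -1.05 ± 0.164 (SE) in the FPKM fit (limma adjusted p = 0.0389) and -1.10 ± 0.208 in the read fit (adjusted p = 0.000113). With 1 library left out at a time, the read fit kept the call in 6 of 6 cases, with log2 changes of -1.35 to -0.86. The FPKM fit kept it only without IAA replicate 1 (limma adjusted p = 0.044). It lost the call without control replicate 1 (0.169), control replicate 2 (0.16), IAA replicate 2 (0.075), washout replicate 1 (0.103) or washout replicate 2 (0.104), all limma adjusted p. Exons of HOXA11 overlap the antisense transcript HOXA11-AS in GENCODE 29. No source used here says whether reads were counted by strand, so reads of these 2 genes cannot be told apart.

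HOXA10, another uterine and limb patterning gene, had 2.38 and 2.34 FPKM with IAA, against 3.14 and 2.94 FPKM in control. The IAA libraries lay within 0.1 FPKM of each other and below both control libraries. Its log2 change of -0.35 ± 0.0775 was not called in the FPKM fit (limma adjusted p = 0.0743) and was called in the read fit at -0.36 ± 0.104 (adjusted p = 0.00911). The read fit lost the call without control replicate 1 (adjusted p = 0.0897) or IAA replicate 2 (0.0558). HOXA9, the HOXA gene that MLL fusion leukaemias depend on, had 2.64 and 2.66 FPKM with IAA, against 3.14 and 3.39 FPKM in control. The recovery gave 700 and 718 reads with IAA and 840 and 916 in control, and again the groups did not overlap. If the unsettled HOXA9 step were larger, these counts would be lower and the precision credited to HOXA9 in the read fit overstated. The log2 change was -0.29 ± 0.154 in the FPKM fit (limma adjusted p = 0.321) and -0.30 ± 0.0965 in the read fit (adjusted p = 0.0205). The read fit lost this call without control replicate 2 (adjusted p = 0.199), IAA replicate 1 (0.0615) or IAA replicate 2 (0.0534). In GENCODE 29 both genes overlap another annotated gene on the same strand and HOXA10-AS on the other, so their reads could be split between these genes.

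HOXA13, the gene of the cluster's 5′ end that works in the hindgut and the digits, had 0.82 and 0.641 FPKM with IAA, against 1.22 and 1.11 FPKM in control. That is 89 and 71 reads with IAA and 134 and 123 reads in control, with no overlap. The log2 change was -0.62 ± 0.19 in the FPKM fit (limma adjusted p = 0.139) and -0.68 ± 0.22 in the read fit, where it was called (adjusted p = 0.0205). Without control replicate 1 (adjusted p = 0.119) or IAA replicate 2 (0.199) that call was lost. Exons of HOXA13 overlap the opposite-strand transcript HOTTIP in GENCODE 29, and reads of the 2 genes cannot be told apart here.

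HOXA5, a trunk and lung patterning gene, had 0.558 and 0.524 FPKM with IAA, against 1.01 and 0.866 FPKM in control. Only 24 and 23 reads with IAA and 44 and 38 reads in control lie behind these values, which do not overlap. Its log2 change of -0.69 ± 0.0995 was called in the FPKM fit (limma adjusted p = 0.0338), and the read fit gave -0.78 ± 0.351 and no call (adjusted p = 0.108). The FPKM fit lost the call whichever 1 of the 6 libraries was left out, with limma adjusted p of 0.0792 to 0.153. HOXA6, its neighbour, had 0.105 and 0.229 FPKM with IAA, against 0.254 and 0.481 FPKM in control, on 9 to 42 reads. Its control libraries differed by more than the group means did, and neither fit called it (limma adjusted p = 0.272 on FPKM and 0.0664 on reads), though without control replicate 1 the read fit called it lower (log2 change -1.59, adjusted p = 0.0236). HOXA7 stood closest to control of the 7, at 2 and 2.03 FPKM with IAA, against 2.31 and 2.19 FPKM in control, with a log2 change of -0.15 that was not called (limma adjusted p = 0.237).

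The promoters of the 4 posterior HOXA genes that were lower in the read fit are shown because these genes moved in the same direction. RefSeq, on the GRCh38.p14 build, gave windows for 20 of the 38 genes and for 7 of the 21 tested ones. Each sequence below is the 250 bases before a transcription start, 5′ to 3′ on the gene's strand. Capitals mark matches on either strand to the TATA box TATAAA, the CCAAT box CCAAT, the GC box GGGCGG, the E-box CACGTG, the caudal-type core TTTATG and the HOX-PBX composite TGATTNAT. The files themselves were made on hg19, and no coordinate was carried between the builds. The windows are chr7:27185233-27185482 for HOXA11, chr7:27174321-27174570 for the second listed start of HOXA10, chr7:27165538-27165787 for HOXA9 and chr7:27200092-27200341 for HOXA13, all on the minus strand.
HOXA11: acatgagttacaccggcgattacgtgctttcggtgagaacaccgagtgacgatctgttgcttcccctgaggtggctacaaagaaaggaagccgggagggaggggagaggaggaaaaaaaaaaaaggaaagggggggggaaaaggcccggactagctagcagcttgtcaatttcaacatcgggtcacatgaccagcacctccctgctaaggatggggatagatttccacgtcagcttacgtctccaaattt
HOXA10: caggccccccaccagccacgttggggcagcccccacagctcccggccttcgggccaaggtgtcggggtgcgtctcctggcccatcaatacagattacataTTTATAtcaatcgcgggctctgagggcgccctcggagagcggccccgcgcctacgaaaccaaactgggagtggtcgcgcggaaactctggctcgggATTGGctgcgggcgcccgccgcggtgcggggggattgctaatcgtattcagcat
HOXA9: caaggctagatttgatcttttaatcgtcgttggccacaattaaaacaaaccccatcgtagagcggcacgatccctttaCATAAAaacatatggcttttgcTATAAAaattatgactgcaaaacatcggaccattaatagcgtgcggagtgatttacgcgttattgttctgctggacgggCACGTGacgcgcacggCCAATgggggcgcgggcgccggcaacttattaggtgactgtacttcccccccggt
HOXA13: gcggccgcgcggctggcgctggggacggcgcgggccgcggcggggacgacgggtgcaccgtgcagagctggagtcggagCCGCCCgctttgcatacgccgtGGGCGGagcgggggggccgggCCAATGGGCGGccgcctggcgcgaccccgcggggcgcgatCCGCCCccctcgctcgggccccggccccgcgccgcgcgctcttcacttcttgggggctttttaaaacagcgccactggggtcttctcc
A CCAAT box stood in 3 of the 4 windows and a TATA box in those of HOXA9 and HOXA10. Both TATA matches began 150 bases before the start, that of HOXA10 on the strand opposite to the gene. HOXA11 held 0 of the 6 motifs, at 51.6% G and C and 11 CpG. HOXA9 held a TATA box, a CCAAT box, an E-box and a caudal-type core, which is the core sequence bound by CDX factors. The HOXA10 window shown held 1 TATA box and 1 CCAAT box. The window of its first listed start, not shown, also held 1 of each. These began 222 and 249 bases before that start, both on the gene's strand. HOXA13 was the most GC-rich of the 4, at 78.0% with 40 CpG, and held 4 GC boxes, 1 of which directly follows its CCAAT box. Over all 35116 RefSeq windows of this length 10.7% held a TATA box, 32.0% a CCAAT box, 42.6% a GC box, 6.34% an E-box, 9.64% a caudal-type core and 2.48% the composite, and the medians were 58.0% G and C and 11 CpG. A match describes the letters and is not evidence of binding.

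In HOXB 0 genes were called lower with IAA in either fit, and HOXB13 was called higher in the read fit alone. Of 9 tested genes 4 had a log2 change below 0 and 5 above, with a median of 0.01. HOXB13, the most posterior gene of the cluster and a regulator of prostate and hindgut identity, had 3.15 and 3.92 FPKM with IAA, against 2.33 and 2.73 FPKM in control. Both IAA libraries lay above both control libraries, on 229 and 290 reads against 171 and 202. The log2 change of 0.46 ± 0.132 was not called in the FPKM fit (limma adjusted p = 0.119) and 0.48 ± 0.147 was called in the read fit (adjusted p = 0.0154). That call was lost without control replicate 1 (adjusted p = 0.176) or IAA replicate 2 (0.232). HOXB9, the next posterior gene, had 1.57 and 1.47 FPKM with IAA, against 1.01 and 1.36 FPKM in control, also without overlap. It was not called (limma adjusted p = 0.292 on FPKM and 0.184 on reads).

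HOXB8, known from myeloid progenitors, had 0.423 and 0.351 FPKM with IAA, against 0.773 and 0.654 FPKM in control. The groups did not overlap, but only 26 and 22 reads with IAA and 48 and 41 reads in control were counted. Its log2 change of -0.74 ± 0.194 was called in neither fit (limma adjusted p = 0.102 on FPKM and 0.0697 on reads). HOXB4, which expands blood stem cells when overexpressed, had 0.873 and 0.7 FPKM with IAA, against 1.4 and 0.882 FPKM in control, and its 2 control libraries differed more than the second of them did from IAA. HOXB3, a hindbrain gene with a span of 56043 bp, had 0.0879 and 0.0862 FPKM with IAA, against 0.119 and 0.135 FPKM in control. Neither was called, with limma adjusted p of 0.313 for HOXB4 and 0.265 for HOXB3 in the FPKM fit, and without control replicate 2 the read fit called HOXB4 lower (adjusted p = 0.0378).

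The remaining HOXB genes lay near their control levels. HOXB7, a gene often highly expressed in carcinomas, had 0.561 and 0.58 FPKM with IAA, against 0.533 and 0.689 FPKM in control. HOXB6 had 1.22 and 1.17 FPKM with IAA, against 1.11 and 1.28 FPKM in control. For both, the IAA values lay between the 2 control values. The 95% interval of the log2 change was -0.39 to 0.24 for HOXB7 and -0.24 to 0.26 for HOXB6 in the FPKM fit. HOXB5 had 1.8 and 1.76 FPKM with IAA, against 1.4 and 1.61 FPKM in control, and HOXB2 had 0.141 and 0.15 FPKM with IAA, against 0.197 and 0.0805 FPKM in control. HOXB5 did not overlap and HOXB2 did, and neither was called (limma adjusted p = 0.643 and 0.888).

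All 4 tested HOXC genes had log2 changes below 0 with IAA, with a median of -0.37, and 0 of them were called in either fit or had an unadjusted p under 0.05 in the FPKM fit. HOXC13, a hair follicle gene, had 0.25 and 0.383 FPKM with IAA, against 0.487 and 0.444 FPKM in control, and was the gene of the 4 without overlap. HOXC10, which acts in lumbar motor neurons, had 0.362 and 0.217 FPKM with IAA, against 0.346 and 0.378 FPKM in control. HOXC9, a thoracic gene, had 0.483 and 0.388 FPKM with IAA, against 0.506 and 0.41 FPKM in control. In both of these the groups overlapped. HOXC8 had 0.372 and 0.227 FPKM with IAA, against 0.267 and 0.73 FPKM in control, and its control libraries were the farthest apart, so that without control replicate 1 the read fit called it lower (adjusted p = 0.0213). HOXD8, the HOXD gene that was tested, had 2.82 and 1.67 FPKM with IAA, against 1.81 and 1.77 FPKM in control. Its IAA libraries lay on either side of control, and the log2 change of 0.27 had a 95% interval of -0.42 to 0.95 (limma adjusted p = 0.567). Without IAA replicate 2 the read fit called HOXD8 higher at a log2 change of 0.65 (adjusted p = 0.0467). HOXC6 and HOXD3, a skeletal patterning gene, were tested on reads alone. HOXC6 had 56 and 71 reads with IAA, against 45 and 51 reads in control, and HOXD3 had 14 and 14 reads with IAA, against 15 and 6 reads in control. Neither was called (adjusted p = 0.319 and 0.544 in the read fit). The plot of changes by position sets HOXA11 lowest and HOXB13 highest in the FPKM fit.

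**Figure D3:**
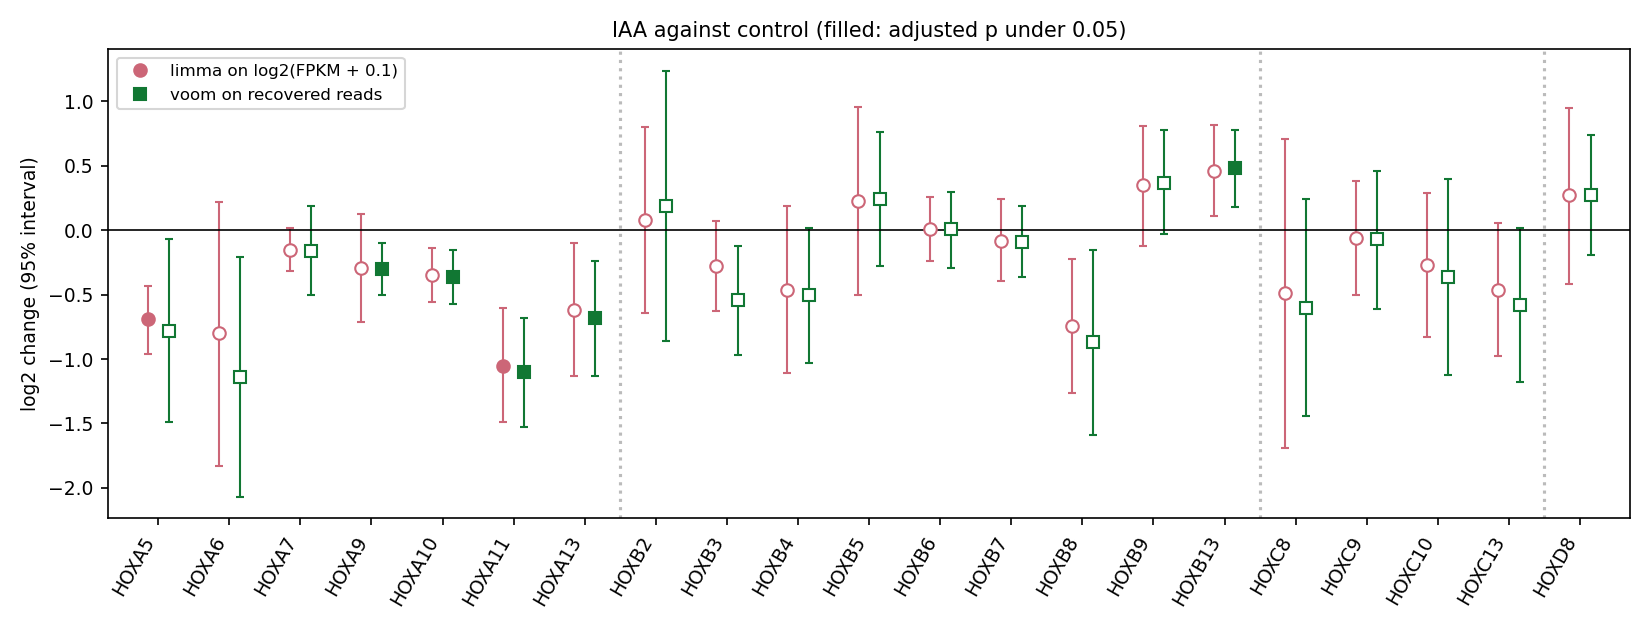
Log2 change with IAA against control of each HOX gene tested in the FPKM fit, grouped by cluster and ordered by position. Points with 95% intervals come from the FPKM fit (circles) and the read fit (squares), filled where called. All 7 HOXA points lie below 0 in both, in the FPKM fit from -1.05 at HOXA11 to -0.15 at HOXA7, while its HOXB points run from -0.74 to 0.46.

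Summed over a whole cluster, the listed HOXA genes gave 87.6 and 85.3 RPM (reads scaled to the library total) with IAA, against 114 and 114 in control, a ratio of 0.757. The 2 IAA libraries and the 2 control libraries each agreed to within 3 RPM, far less than the gap between the groups. HOXB sums were 66.2 and 67.9 RPM with IAA, against 62.4 and 69.9 in control. HOXC sums were 13.5 and 13.1 RPM with IAA, against 14.6 and 15.6 in control. HOXD sums were 9.55 and 5.9 RPM with IAA, against 6.44 and 5.73 in control. The HOXB and HOXD sums overlapped between the groups, and HOXA and HOXC did not. These sums weigh genes by reads, so the HOXA sum follows mainly HOXA9 and HOXA10. The size of the HOXA sum and its ratio depend on the unsettled HOXA9 reads. No test was made on the sums.

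After 48 h of washout 6 of the 7 tested HOXA genes stood above both of their IAA values, the exception being HOXA6. HOXA11 was 2.35 times its IAA level, HOXA13 1.76 times, HOXA10 1.44 times and HOXA9 1.28 times. These comparisons use the same IAA libraries as the ones with control, so a high or low IAA library acts on both. The FPKM fit called 2 of 21 HOX genes higher after washout than with IAA, HOXA10 and HOXA11, where 4.33% of all genes were called higher. It called 0 of 21 lower, where 4.15% of all genes were, and 6 of 21 had an unadjusted p under 0.05, against 27.8% of all genes. The read fit called HOXA9, HOXA10, HOXA11 and HOXA13 higher and 0 lower of 23, beside 11.6% and 13.7% of all genes. Without overlap 12 of 21 were higher and 2 were lower, beside 27.0% and 30.5% of all genes tested. The log2 change was above 0 in 15 of 21, against 46.6% of all genes, and its median was 0.32 over the 21 genes and -0.01 over all genes. By cluster it was 0.42 in HOXA, -0.01 in HOXB and 0.52 in HOXC, where all 4 tested genes were above 0 and 0 were called.

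HOXA11 had 2.87 and 2.86 FPKM after washout, against 1.43 and 1.01 FPKM with IAA. Its washout libraries were nearly equal and far from both IAA libraries. The log2 change was 1.19 ± 0.164 in the FPKM fit (limma adjusted p = 0.0309) and 1.25 ± 0.205 in the read fit (adjusted p = 1.39e-05). With 1 library left out at a time the read fit kept this call in 6 of 6 cases and the FPKM fit in 1, without IAA replicate 1 (limma adjusted p = 0.0375), with limma adjusted p of 0.0644 to 0.144 in the other 5. HOXA10 had 3.63 and 3.17 FPKM after washout, against 2.38 and 2.34 FPKM with IAA. Its log2 change of 0.50 ± 0.0775 was called in the FPKM fit (limma adjusted p = 0.0373) and in the read fit at 0.52 ± 0.102 (adjusted p = 0.00017). The read fit kept it in 6 of 6 cases with a library left out and the FPKM fit in 0 of 6, where limma adjusted p ran from 0.0855 to 0.16.

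HOXA13 had 1.08 and 1.49 FPKM after washout, against 0.82 and 0.641 FPKM with IAA. The washout libraries differed by more than the IAA libraries did, and the groups did not overlap. The read fit called it (log2 change 0.80 ± 0.216, adjusted p = 0.0051), except without IAA replicate 2 (0.0906) or washout replicate 2 (0.118), and the FPKM fit did not (limma adjusted p = 0.0959). HOXA9 had 3.91 and 2.88 FPKM after washout, against 2.64 and 2.66 FPKM with IAA. The first washout library was high, on 1054 reads against 772 in the second, and decided the result: the read fit called HOXA9 (log2 change 0.34 ± 0.096, adjusted p = 0.00756), but without washout replicate 1 the log2 change was 0.12 (adjusted p = 0.454). The FPKM fit did not call HOXA9 (limma adjusted p = 0.263), and the read fit rests on HOXA9 reads that are not settled.

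HOXA7 had 2.41 and 2.67 FPKM after washout, against 2 and 2.03 FPKM with IAA, and HOXA5 had 0.709 and 0.803 FPKM after washout, against 0.558 and 0.524 FPKM with IAA. Both were higher without overlap and neither was called in the FPKM fit (limma adjusted p = 0.0605 and 0.0829) or the read fit (adjusted p = 0.146 and 0.38). With a filter of 1 FPKM and a pseudocount of 1, HOXA7 was called (limma adjusted p = 0.0458), together with HOXA10 and HOXA11, beside 7.73% of all genes. HOXA6 was at 0.115 and 0.196 FPKM after washout, against 0.105 and 0.229 FPKM with IAA. In HOXB, HOXB8 had 0.576 and 0.835 FPKM after washout, against 0.423 and 0.351 FPKM with IAA, and was not called (limma adjusted p = 0.105), though the read fit called it without washout replicate 1 (adjusted p = 0.0464). HOXB13 was at 3.36 and 3.26 FPKM after washout, against 3.15 and 3.92 FPKM with IAA, with overlap.

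Among the other HOXB genes, HOXB2 and HOXB6 were lower after washout than with IAA without overlap. HOXB6 had 0.994 and 1.13 FPKM after washout, against 1.22 and 1.17 FPKM with IAA, and HOXB2 had 0.138 and 0.127 FPKM after washout, against 0.141 and 0.15 FPKM with IAA. HOXB4 was higher at 1.26 and 1.1 FPKM after washout, against 0.873 and 0.7 FPKM with IAA. None of the 3 was called (limma adjusted p = 0.355 for HOXB6, 0.896 for HOXB2 and 0.249 for HOXB4). HOXB5 had 2.04 and 1.16 FPKM after washout, against 1.8 and 1.76 FPKM with IAA, and HOXB9 had 1.68 and 1.35 FPKM after washout, against 1.57 and 1.47 FPKM with IAA. In both the washout libraries lay on either side of IAA. HOXB7 had 0.572 and 0.595 FPKM after washout, against 0.561 and 0.58 FPKM with IAA.

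In HOXC, HOXC8 had 0.556 and 0.507 FPKM after washout, against 0.372 and 0.227 FPKM with IAA, and HOXC10 had 0.413 and 0.495 FPKM after washout, against 0.362 and 0.217 FPKM with IAA. HOXC13 had 0.537 and 0.432 FPKM after washout, against 0.25 and 0.383 FPKM with IAA. These 3 were higher without overlap, on 18 to 70 reads a library, and had limma adjusted p of 0.405, 0.199 and 0.19 in the FPKM fit. HOXC9 had 0.546 and 0.427 FPKM after washout, against 0.483 and 0.388 FPKM with IAA, with overlap. HOXD8 had 2.49 and 2.22 FPKM after washout, against 2.82 and 1.67 FPKM with IAA, and so lay inside the IAA range. In the read fit HOXD3 had 12 and 2 reads after washout, against 14 and 14 reads with IAA, a log2 change of -1.38 that was the largest of the 23 in size and was not called (adjusted p = 0.11). Without washout replicate 2 it was -0.22, and without washout replicate 1 it was -2.54 and called (adjusted p = 0.046). HOXC6 had 52 and 51 reads after washout, against 56 and 71 reads with IAA (adjusted p = 0.466 in the read fit). The plot of washout changes sets the genes of the FPKM fit side by side, without HOXC6 and HOXD3.

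**Figure D4:**
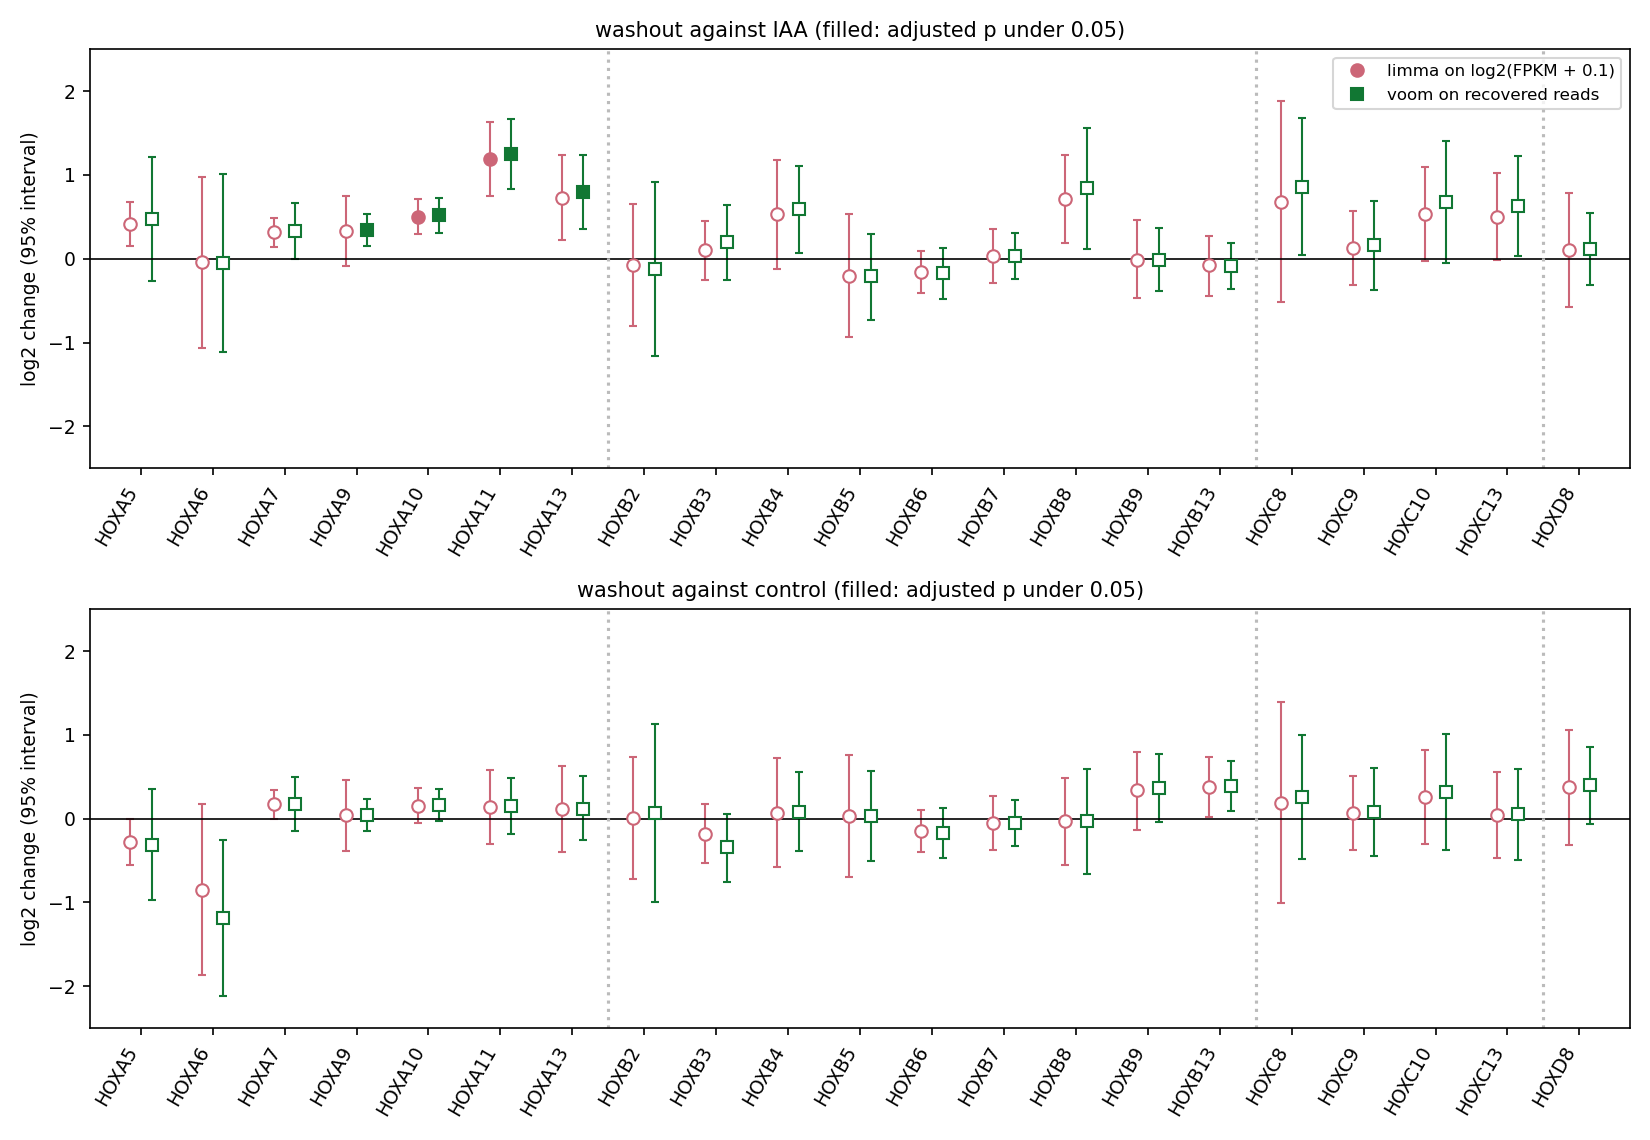
Log2 change after washout against IAA and against control of each HOX gene tested in the FPKM fit, grouped by cluster and ordered by position. Points with 95% intervals come from the FPKM fit (circles) and the read fit (squares), filled where called. In the FPKM fit the HOXA points lie between -0.04 and 1.19 against IAA, and all tested HOX points lie between -0.85 and 0.38 against control.

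Against control, washout cells had no HOX gene that was called. The FPKM fit called 0 of 21 and the read fit 0 of 23, where 0.182% and 0.621% of all genes were called changed. At an unadjusted p under 0.05 the FPKM fit gave HOXA5 and HOXB13 and the read fit HOXA6 and HOXB13, beside 8.54% and 11.1% of all genes. The median log2 change of the 21 genes was 0.07, beside 0.01 for all genes. For HOXA11 the values were 2.87 and 2.86 FPKM after washout, against 2.71 and 2.47 FPKM in control, a log2 change of 0.14 with a 95% interval of -0.30 to 0.58. For HOXA10 they were 3.63 and 3.17 FPKM after washout, against 3.14 and 2.94 FPKM in control, with an interval of -0.05 to 0.36. The intervals of HOXA13, -0.40 to 0.63, and of HOXA9, -0.38 to 0.46, also hold 0, and none of these shows that the levels were equal.

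Without overlap between washout and control 3 of 21 genes were lower and 6 higher, beside 17.0% and 22.5% of all genes tested. The 3 lower ones were HOXA5, HOXA6 and HOXB3, and the 6 higher ones HOXA7, HOXA10, HOXA11, HOXB13, HOXC10 and HOXD8. HOXA5 had 0.709 and 0.803 FPKM after washout, against 1.01 and 0.866 FPKM in control, so it lay between its IAA and its control values, with a log2 interval of -0.55 to -0.01 (limma adjusted p = 0.571). HOXA6 had 0.115 and 0.196 FPKM after washout, against 0.254 and 0.481 FPKM in control, and lay with the IAA libraries (limma adjusted p = 0.63). HOXB13 had 3.36 and 3.26 FPKM after washout, against 2.33 and 2.73 FPKM in control, with a log2 interval of 0.02 to 0.74 (limma adjusted p = 0.571). HOXB3 had 0.095 and 0.105 FPKM after washout, against 0.119 and 0.135 FPKM in control. HOXD8 had 2.49 and 2.22 FPKM after washout, against 1.81 and 1.77 FPKM in control.

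The cluster sums after washout followed the single genes. HOXA sums were 129 and 112 RPM after washout, 87.6 and 85.3 with IAA and 114 and 114 in control. As recovered, the washout values lay on either side of control and above both IAA values. Their place against control depends on the unsettled HOXA9 reads. HOXB sums were 69 and 67.2 RPM after washout and HOXC sums 16.9 and 15.3, within or near the range of the control libraries. HOXD sums were 8.26 and 6.97 RPM after washout, above both control sums of 6.44 and 5.73. All listed HOX genes together gave 224 and 202 RPM after washout, 177 and 172 with IAA and 197 and 206 in control. In the plot of cluster sums HOXA is the cluster whose IAA dots are farthest from the others relative to their own spread.

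**Figure D5:**
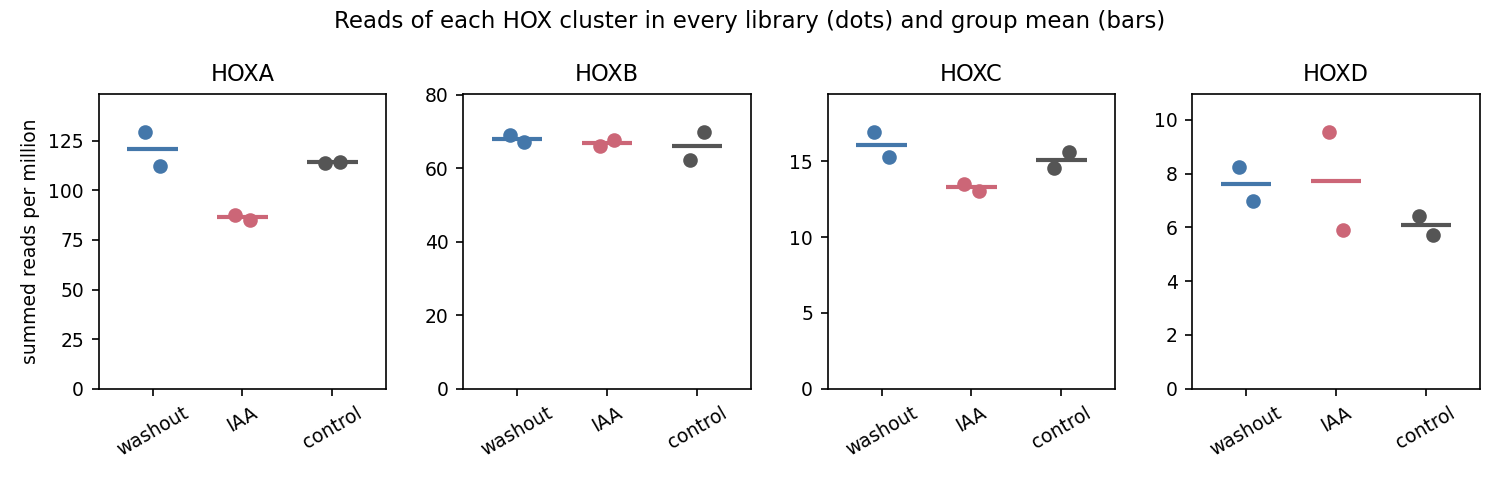
Summed reads, as RPM, of the listed genes of each HOX cluster in every library (dots) with group means (bars), for washout, IAA and control, with 1 panel per cluster and each vertical axis starting at 0. The HOXA dots lie at 129 and 112 after washout, 87.6 and 85.3 with IAA, and 114 and 114 in control, while HOXB dots lie between 62.4 and 69.9 in all groups. The HOXA values hold the unsettled HOXA9 reads.

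By position rather than cluster, the 9 tested posterior genes had 7 log2 changes below 0 with IAA, with a median of -0.29, the 10 central genes 7 with a median of -0.30, and the 2 anterior genes 1 with a median of -0.10. The posterior genes of different clusters went in different directions. The 4 in HOXA ran from -1.05 to -0.29 and the 3 in HOXC from -0.46 to -0.06, while HOXB9 and HOXB13 were at 0.35 and 0.46. After washout all 9 posterior genes were above 0 against control, from 0.04 to 0.38, beside 54.2% of all genes tested, and 0 were called. With a library left out HOXA9, HOXA13, HOXC9 and HOXC13 crossed 0. The clusters were described by counts and medians, and no test of a difference between clusters or positions was made.

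HOX proteins bind DNA together with TALE homeodomain cofactors of the PBX, MEIS and PKNOX families. Of 9 such genes 3 were tested in the FPKM fit, which called 1 lower with IAA and 0 higher, beside 3.77% and 4.4% of all genes. PBX2 was the gene called, at 5.09 and 4.96 FPKM with IAA, against 6.1 and 5.94 FPKM in control (log2 change -0.26, limma adjusted p = 0.031). The read fit tested 7 and called PBX2 and PKNOX1 lower and PBX4 higher, beside 10.2% and 13.9% of all genes. With 1 library left out at a time the read fit kept PBX2 in 2 of 6 cases, losing it without any 1 of the IAA and control libraries, while the FPKM fit kept it in 0. The read fit lost PKNOX1 without IAA replicate 2 (log2 change -0.17, adjusted p = 0.355) or control replicate 1 (0.051), and PBX4 without control replicate 1 (log2 change 0.49, adjusted p = 0.278) or IAA replicate 1 (0.0762). Of 8 ParaHox and EVX genes, the relatives of HOX genes outside or at the edge of the clusters, 2 were tested and 0 called in the FPKM fit. CDX2, the intestinal factor that binds HOX regulatory regions, had 2.24 and 2.34 FPKM with IAA, against 1.5 and 1.91 FPKM in control. The groups did not overlap, and the read fit called it higher (log2 change 0.43, adjusted p = 0.011) while the FPKM fit did not (limma adjusted p = 0.126), and with a library left out the read fit kept this call in 4 of 6 cases, losing it without control replicate 1 (adjusted p = 0.245) or IAA replicate 2 (0.0634).

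Among 26 genes of trithorax and ENL complexes, which keep HOX genes active, the FPKM fit tested 24 and called 1 lower and 2 higher with IAA, beside 3.77% and 4.4% of all genes. DOT1L, the H3K79 methyltransferase, had 1.22 and 1.28 FPKM with IAA, against 1.54 and 1.58 FPKM in control, and was called lower (log2 change -0.29, limma adjusted p = 0.0405). The elongation factor ELL2 and the KMT2-complex subunit RBBP5 were called higher, each at a log2 change of 0.39 (limma adjusted p = 0.0302 and 0.0304). After washout DOT1L was called higher than with IAA and ELL2, RBBP5 and CCNT1 lower. The read fit called 2 of 26 lower and 7 higher with IAA, beside 10.2% and 13.9% of all genes, and the median of the list was 0.02 in both fits, beside 0.03 and 0.04 for all genes. With 1 library left out at a time the read fit kept the calls of DOT1L, ELL2 and RBBP5 in 6 of 6 cases and the FPKM fit in 0 of 6.

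Among 26 Polycomb genes, whose complexes keep HOX genes silent, all were tested and the FPKM fit called 1 lower and 2 higher with IAA, beside 3.77% and 4.4% of all genes. CBX2, a chromodomain subunit of PRC1, had 4.73 and 4.75 FPKM with IAA, against 6.56 and 6.49 FPKM in control, and was lower (log2 change -0.45, limma adjusted p = 0.0146). JARID2, a PRC2 cofactor, was higher at a log2 change of 0.53 (limma adjusted p = 0.0496). After washout CBX2 was called higher than with IAA, and CBX8 lower. The CBX8 call (limma adjusted p = 0.0432) was kept with a library left out in 0 of 6 cases in the FPKM fit and in 2 of 6 in the read fit, those without a control library. The read fit called 5 of 26 lower and 3 higher with IAA, beside 10.2% and 13.9% of all genes. With 1 library left out at a time the read fit kept the IAA calls of CBX2 and JARID2 in 6 of 6 cases, and the FPKM fit kept CBX2 in 2 of 6 and JARID2 in 0. Against control 0 genes of these 4 lists were called after washout in either fit. Whether any of these genes bears on the HOX values was not tested.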

How the data were processed

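Poly(A)-selected RNA from 6 libraries in 3 groups of 2 was sequenced. Per the labels' protocols RNA was taken with Trizol, selected with oligo dT and primed with random hexamers. The authors deposited FPKM for 31628 genes, made with HISAT, Bowtie2, HTSeq and edgeR on hg19 per the submitters' processing notes, which give no versions, roles or order. The strand counted is not stated there.

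From the deposited FPKM, steps between low values gave library totals and whole reads. In all libraries 99.98% of the 21707 genes above 0 came out whole (tolerance 0.02 reads), and 3 genes had no solution. A step divided by a whole number also gives whole reads, so this share does not fix the step. The step matched the GENCODE 29 span for 16536 genes, and for 4321 the multiple nearest that span was taken. The implied lengths equal the GENCODE 29 span for HOXA10 (9671 bp) and HOXA11 (3714 bp), for example, and differ for others. They are 16128 against 12746 bp for HOXA9, 10716 against 9242 bp for HOXB6 and 4739 against 3257 bp for HOXC8. GENCODE 29 is on GRCh38, the files are on hg19, and no hg19 annotation was used. Reads summed over genes slightly exceeded the totals from the steps. Intervals cover the spread between libraries, and the read floor covers counting error only.

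The test fixed as the first choice was limma 3.58.1 (R 4.3.3) with a prior trend on log2(FPKM + 0.1), over the 14809 genes that averaged 0.1 FPKM or more, with a mean per group over all 6 libraries, no replicate block and 3 residual degrees of freedom. This scale understates the change of low genes. The second was limma's voom on the recovered reads of 14808 genes with at least 10 mean reads, with 31 prior degrees of freedom against 1.32 in the first. Adjusted p is Benjamini-Hochberg over all genes tested. Both fits and the recovery of reads were tested on simulated data, where the FPKM fit made more false calls than the read fit. The simulated reads had a fixed spread setting, the same for all genes. Whether the fits compare in this way on the real libraries was not tested.

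Every HOX member with a mean of at least 0.1 FPKM is given with all its libraries. From each related list at most 4 genes are named with values, called ones first. The values of 1 gene of these lists are not reported here. The HOX genes, lists, filter and pseudocount were chosen with earlier results of these data known. The alternatives were a pseudocount of 1, no filter, a filter of 1 FPKM with a pseudocount of 1, TPM, the read fit, a replicate block, 2 groups alone and leaving out each library. The read fit without each library was added after seeing the data. Exon lengths and overlaps come from GENCODE 29 and promoters from RefSeq, with Python 3.11.15 and pandas 2.3.3.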

Additional observations from a re-analysis of the deposited data

How the results depend on the processing

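Over all genes the FPKM fit called 1210 changed with IAA against control, 1255 after washout against IAA and 27 after washout against control. On recovered reads these were 3567, 3740 and 92, with the replicate block 73, 77 and 0, and in fits of 2 groups alone 160, 139 and 54. For washout against control no filter gave 52, a filter of 1 FPKM with a pseudocount of 1 gave 0 and TPM gave 4. With 1 library left out they ranged over 116 to 175, 114 to 154 and 52 to 84 on FPKM, and over 2228 to 3715, 2716 to 3589 and 15 to 128 on reads. Of the calls with IAA 53.8% were higher on FPKM and 43.0% on TPM, and of those after washout against IAA 51.1% and 63.4%. HOX genes called lower with IAA numbered 2, against 0 with no filter, 1 with the filter of 1 FPKM, 4 on reads, 0 with the block, 0 with 2 groups alone, and 0 to 1 on FPKM or 1 to 4 on reads without a library. Those called higher with IAA were 0 on FPKM and 1 on reads, and 0 to 1 on reads without a library. Those higher after washout than with IAA numbered 2, against 0 with no filter, 4 on reads, 0 with the block and 0 with 2 groups alone, and 0 to 1 on FPKM or 3 to 4 on reads without a library. Those lower after washout than with IAA were 0, and 0 to 1 on reads without a library. The cause of these shifts was not tested. The replicate numbers share no stated origin, deviations of same-numbered libraries correlated at 0.0576, 0.00736 and 0.0504 over 14809 genes, and the samples share only a number. Directions reversed for HOXB6 with IAA on TPM (log2 change -0.03), HOXB9 after washout against IAA on TPM (0.03) and HOXB2 after washout against control with a pseudocount of 1 (-0.01). Without a library, in either fit, the log2 change crossed 0 with IAA for HOXB2 (-0.43 to 0.81), HOXB6 (-0.09 to 0.11), HOXB7 (-0.27 to 0.1), HOXC8 (-1.31 to 0.12), HOXC9 (-0.23 to 0.08), HOXD3 (-0.1 to 1.17) and HOXD8 (-0.1 to 0.65). After washout against IAA it did so for HOXA6 (-0.59 to 0.49), HOXB13 (-0.24 to 0.07), HOXB5 (-0.62 to 0.19), HOXB9 (-0.16 to 0.14), HOXC9 (-0.02 to 0.33), HOXD8 (-0.26 to 0.49) and MLLT1 (-0.02 to 0.15). After washout against control it did so for HOXA13 (-0.11 to 0.36), HOXA9 (-0.18 to 0.26), HOXB2 (-0.55 to 0.68), HOXB4 (-0.25 to 0.41), HOXB5 (-0.38 to 0.43), HOXB7 (-0.24 to 0.13), HOXB8 (-0.3 to 0.23), HOXC13 (-0.11 to 0.21), HOXC8 (-0.46 to 0.98), HOXC9 (-0.09 to 0.26), HOXD3 (-2 to 0.32), CDX2 (-0.08 to 0.26) and JARID2 (-0.01 to 0.18). Of 1902 values of single genes under an alternative 1589 kept direction and call, 164 lost the call, 73 gained one and 76 reversed. Under 50 reads in every library, as in HOXA5, HOXA6, HOXB2 and HOXC10, counting noise alone leaves wide intervals.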
